A study of Macaca fascicularis with 16 samples.

Results

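Mucosal surfaces are defended by proteins that epithelial glands and resident immune cells release into the lumen, where they bind, coat or lyse microbes, hold back iron and restrain the proteases of inflammatory cells. The genes described here code for 8 such proteins: DMBT1, CXCL17, LYZ, WFDC2, SLPI, LTF, LCN2 and PIGR. Their probe sets are all those to which the annotation of the array's platform gives 1 of these symbols and no other. That rule found 13 probe sets for 7 of the 8 genes, out of 52865 probe sets and 14133 genes with a symbol. LTF, which codes for the iron-binding protein lactoferrin, is a symbol that the annotation gives to no probe set, and it was not analysed here. The genes were singled out because DMBT1, CXCL17 and LYZ were known to stand apart from control in these same arrays, so their differences from control are given as a description, with no test.

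The tissue was frozen endometrium, the lining of the uterus, from 16 postmenopausal female cynomolgus macaques (Macaca fascicularis), randomized to 4 parallel arms of 4 animals and sampled after 4 months. The combination arm received micronized estradiol at 0.25 mg and tamoxifen at 20 mg per 1800 kcal of diet, the tamoxifen arm 20 mg of tamoxifen alone, and the estradiol arm 0.25 mg of estradiol alone. The control arm received placebo. Estradiol is the main ovarian estrogen, and tamoxifen is a selective estrogen receptor modulator that opposes estrogen in the breast and acts partly as an estrogen in the uterus. Each animal gave 1 Affymetrix array, of a design made for the related rhesus macaque. Arrays are named by arm and number, as in control 2, and equal numbers do not mark the same animal.

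Values are signals on a linear scale, as the authors deposited them. All 16 arrays had the same trimmed mean signal of 250.0, and array medians ran from 58.7 to 70.3. Differences between arms are differences of mean log2(signal + 4.80), with the standard error (SE) of a limma fit to all 16 arrays, and they understate the change of dim probe sets. Adjusted p-values are Benjamini-Hochberg over the 31659 probe sets bright enough to be tested, with a threshold of 0.05. A gene was followed through its brightest probe set. Of the 13 probe sets 10 were bright enough, and they covered 6 of the 7 genes. Signals of different probe sets are not set against each other as levels, since probes differ in affinity. Only 4 animals per arm limit the precision.

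DMBT1 (deleted in malignant brain tumors 1, also known as salivary agglutinin or gp340) is a large secreted glycoprotein of scavenger receptor cysteine-rich domains that binds bacteria and viruses at mucosal surfaces. Its signals were 719.8, 529.7, 603 and 1579 on the 4 combination arrays and 1343, 1263, 627 and 391 on the 4 tamoxifen arrays. They were 5382, 2487, 1976 and 1427 on the 4 estradiol arrays, against 58.3, 87.5, 141 and 94.5 on the 4 control arrays. Every array of the 3 treated arms lay above every control array, and the estradiol arrays were the highest, although the lowest of them (1427) lay below the highest combination array (1579). The difference from control was 3.03 on the log2 scale with the combination (SE 0.46, 8.15-fold), 3.08 with tamoxifen (8.43-fold) and 4.70 with estradiol (25.9-fold). A second, dimmer DMBT1 probe set gave 31.4 to 124 with the combination, 7.89 to 149 with tamoxifen and 132 to 658 with estradiol, against 1.26 to 2.31 in control. Its control signals lay below the pseudocount of 4.80, which would set the size of any difference from control, and it was bright enough to be tested only through the estradiol arm. It is given here as signals only. Within the combination, tamoxifen and estradiol arms the 2 probe sets put the 4 arrays in the same order.

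CXCL17 is a secreted protein of mucosal epithelia, named as a chemokine, that attracts monocytes and macrophages. Its signals were 737, 181, 455 and 383 with the combination and 211, 239, 196 and 195 with tamoxifen. With estradiol alone they were 45.3, 61.1, 39.3 and 23.9, against 34.2, 26.8, 24.2 and 38.1 in control. All 8 arrays of animals given tamoxifen, with or without estradiol, lay above all 8 of the other arrays, while estradiol and control arrays overlapped. The 4 tamoxifen arrays were close together, with a mean signal of 211 ± 20.6 (SD, n = 4), and the combination arrays spread more widely, with a mean of 439 ± 230.1 (SD, n = 4). The difference from control was 3.49 on the log2 scale with the combination (SE 0.33, 11.2-fold) and 2.61 with tamoxifen (6.10-fold). With estradiol it was 0.36 (1.28-fold), about the size of its SE.

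LYZ codes for lysozyme, the enzyme of tears, saliva, granulocytes and macrophages that cleaves bacterial cell walls. Its signals were 5231, 11622.5, 6806 and 4787 with the combination and 4735, 7147, 3143 and 9602 with tamoxifen. They were 1520.1, 5075, 2324 and 1631 with estradiol, against 793, 2556, 663 and 586 in control. Combination and tamoxifen arrays all lay above the control arrays, whereas 3 of the 4 estradiol arrays fell below the highest control array. That array, control 2, stood apart from the other 3. The difference from control was 2.82 on the log2 scale with the combination (SE 0.49, 7.05-fold), 2.58 with tamoxifen (5.97-fold) and 1.30 with estradiol (2.46-fold). The value for estradiol depended on single animals, at 0.92 without estradiol 2 and 1.78 without control 2.

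**Figure D1:**
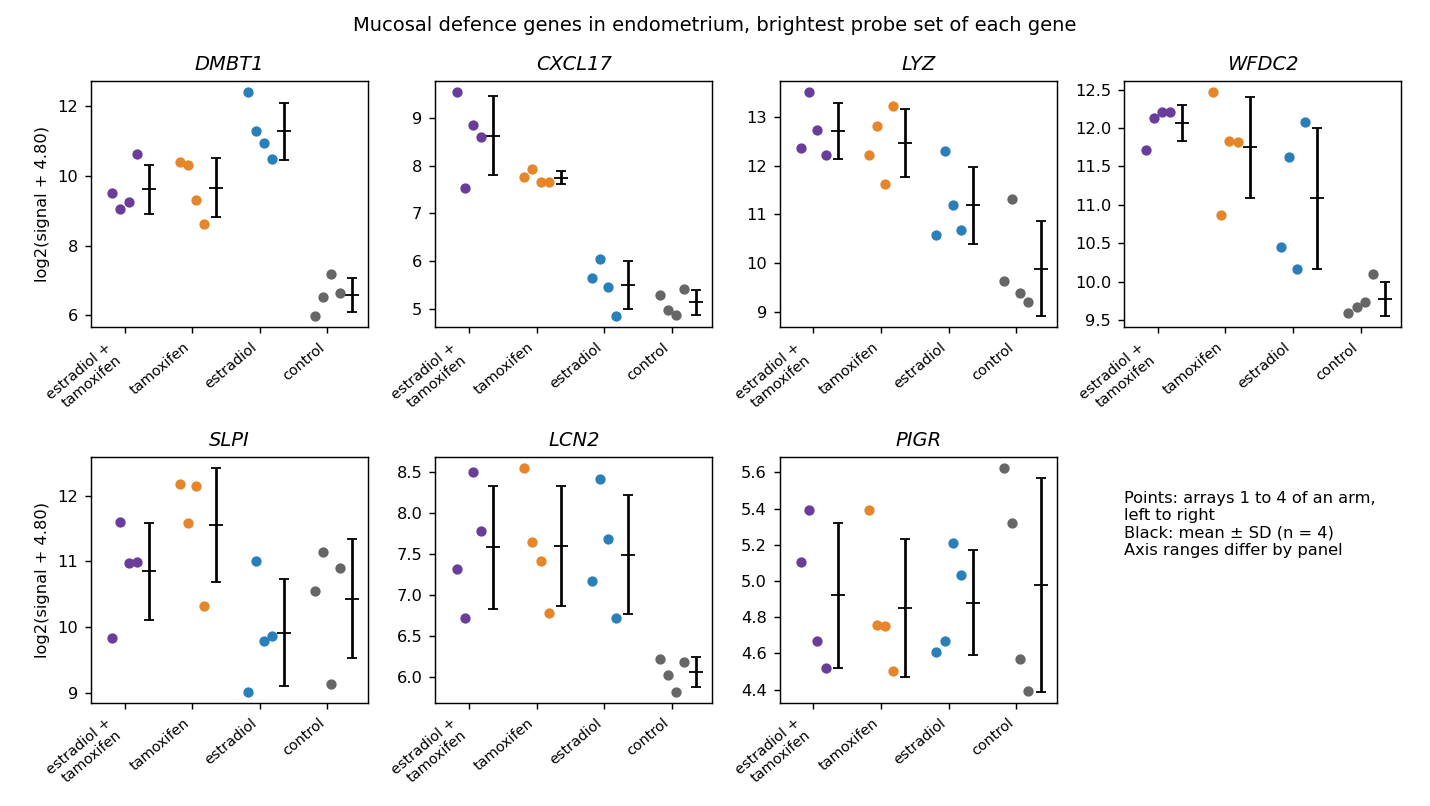
Log2(signal + 4.80) for the brightest probe set of each gene in the combination, tamoxifen, estradiol and control arms; coloured points are animals, and black marks are the arm mean ± SD (n = 4). DMBT1 was highest with estradiol, CXCL17 separated the arms given tamoxifen (signals of 181 to 737) from the others (23.9 to 61.1), and the arms of SLPI and PIGR overlapped.

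WFDC2 (HE4) and SLPI (secretory leukocyte protease inhibitor) are small secreted proteins built of WAP domains, SLPI being an inhibitor of neutrophil elastase that also kills microbes. Both genes lie on the same chromosome of the macaque RefSeq assembly T2T-MFA8v1.1, with 7 protein-coding genes between them. The brightest WFDC2 probe set read 3364, 4495, 4721 and 4731 with the combination and 5655, 1867, 3652 and 3617 with tamoxifen. It read 1399.7, 3156, 1147 and 4338 with estradiol, against 768, 807, 849.5 and 1091 in control. All arrays of the treated arms lay above all control arrays, by 2.29 on the log2 scale with the combination (SE 0.37, 4.90-fold), 1.98 with tamoxifen (3.93-fold) and 1.31 with estradiol (2.48-fold). The lowest estradiol array (1147) was barely above the highest control array (1091).

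SLPI gave signals of 909, 3097, 2010.0 and 2039 with the combination and 4601.5, 3079, 4511 and 1271 with tamoxifen. The signals were 512, 2040.4, 882 and 927 with estradiol, against 1489, 2268, 556 and 1907 in control. Its arms overlapped throughout. The tamoxifen arm was 1.12 above control on the log2 scale (SE 0.52, 2.18-fold) and the combination arm 0.42 (1.34-fold), and the difference for estradiol was -0.51. Leaving out 1 array moved the difference for the combination between -0.013 and 0.76 and that for estradiol between -0.95 and -0.21. By mean log2 signal the arms ran combination, tamoxifen, estradiol, control for WFDC2 and tamoxifen, combination, control, estradiol for SLPI. With the SLPI arms overlapping and none of its differences between treated arms called, its order is not established.

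LCN2 codes for lipocalin 2, which withholds iron from bacteria by capturing their siderophores. The brightest of its 4 probe sets gave 155, 100.5, 357 and 215 with the combination and 369.7, 195, 166 and 105 with tamoxifen. It gave 138, 335, 200.0 and 100.2 with estradiol, against 69.7, 60.3, 51.4 and 67.3 in control. The 3 treated arms covered nearly the same range and all lay above control, by 1.52 on the log2 scale with the combination (SE 0.41, 2.87-fold), 1.54 with tamoxifen (2.91-fold) and 1.43 with estradiol (2.70-fold). The other LCN2 probe sets did not share this pattern. One bright enough to be tested gave differences from control of -0.36, -0.71 and -0.84 (SE 0.33) for the combination, tamoxifen and estradiol, with every tamoxifen and estradiol array below every control array. Another gave 0.38, -1.02 and -0.55 (SE 0.73), with overlap in each arm. The direction for LCN2 therefore holds for 1 probe set only. That probe set was the brightest by its mean over all arrays. In control its mean log2 signal (6.06) was below those of the other tested probe sets (6.61 and 6.90). It thus ranked first through the treated arms, so its choice favours a difference above control.

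The probe sets of WFDC2 differed as well. A second one spanned 42.3 to 70.8 with the combination, 50.7 to 73.9 with tamoxifen and 49.3 to 75.8 with estradiol, against 39.2 to 64.0 in control. Its differences from control were 0.045, 0.13 and 0.18 (SE 0.21), and the arms overlapped. The remaining one was too dim to be tested, with no signal above 41.5. Which of these probe sets match cynomolgus transcripts was not tested. CXCL17, LYZ and SLPI had 1 probe set each.

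PIGR codes for the polymeric immunoglobulin receptor, which carries IgA across epithelia into secretions. Its single probe set was dim on every array and was left out of the tests. The signals were 29.6, 37.2, 20.7 and 18.1 with the combination and 37.2, 22.3, 22.2 and 17.8 with tamoxifen. They were 19.6, 20.6, 32.3 and 27.9 with estradiol, against 44.5, 35.1, 19.0 and 16.2 in control. The arms overlapped, and no array exceeded the lowest array median of 58.7, so these signals do not show whether the gene differed between arms.

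**Figure D2:**
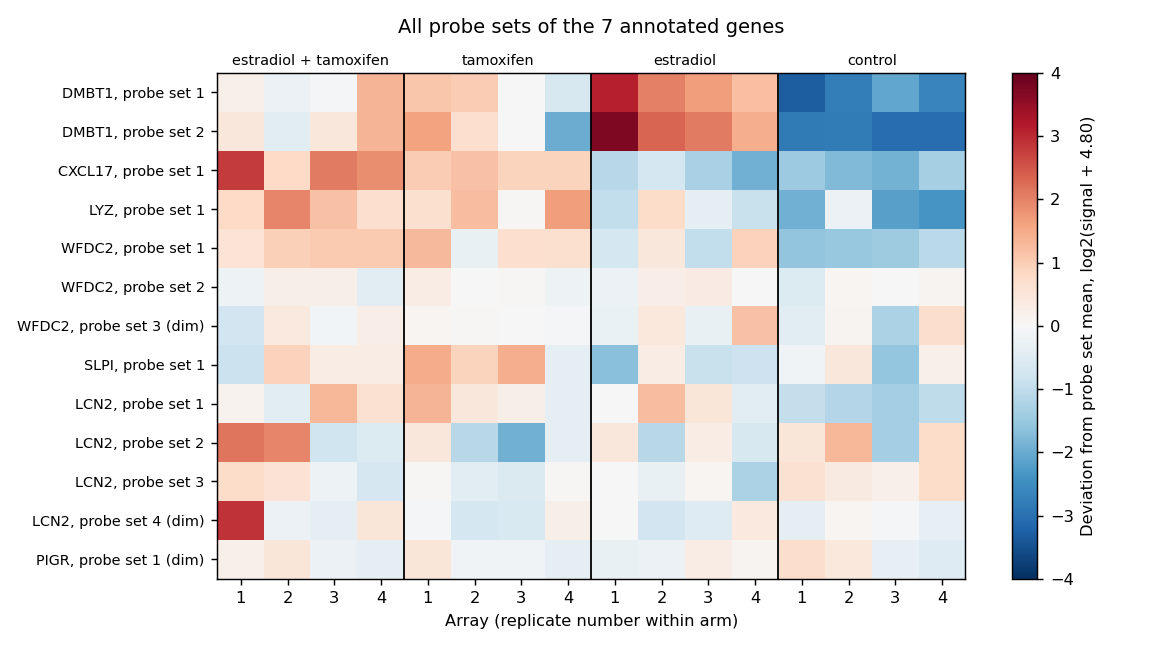
Deviation of each array (columns, by arm) from the mean of each of the 13 probe sets (lines of the heat map), in log2(signal + 4.80), red for higher and blue for lower; probe sets too dim to be tested are marked. Both DMBT1 probe sets were highest on average in the estradiol arm and lowest on the control arrays, whereas the dimmer probe sets of LCN2 and WFDC2 did not follow the brightest one.

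Counted together, 5 of the 6 genes bright enough to be tested had all combination arrays above all control arrays, and 15.2% of all 10705 genes did so. For tamoxifen the count was likewise 5 of 6, against 11.2% of all genes. For estradiol it was 3 of 6 (DMBT1, WFDC2 and LCN2), against 15.4%. Since the genes were chosen by these differences, and the LCN2 probe set ranked brightest through the treated arms, nothing is read from the counts. The median difference over the 6 genes was 2.56 on the log2 scale with the combination, 2.28 with tamoxifen and 1.30 with estradiol. The same medians over all genes were -0.013, -0.018 and 0.011.

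**Figure D3:**
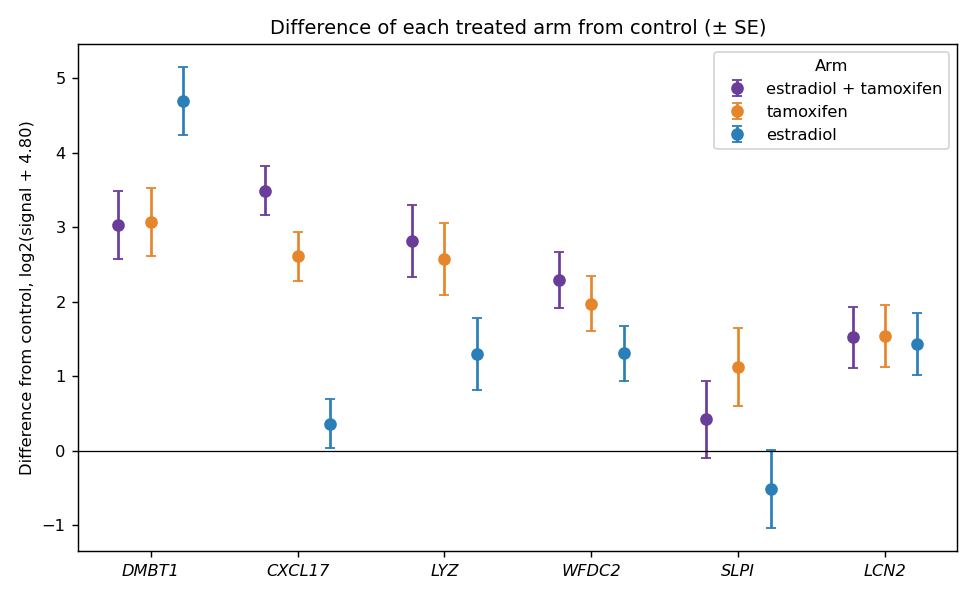
Difference of the combination, tamoxifen and estradiol arms from control (log2) for the brightest probe set of each of the 6 genes bright enough to be tested; points are differences of arm means and bars ± 1 SE of the limma fit. DMBT1 stood highest with estradiol (4.70), CXCL17 with the combination (3.49), and SLPI lay within 1 SE of 0 in the combination and estradiol arms (0.42 and -0.51, SE 0.52).

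The layout of the arms gives a second description, how far the combination departs from the sum of the effects of the 2 drugs. It is the difference between combination and tamoxifen minus the difference between estradiol and control. For DMBT1 it was -4.74 on the log2 scale (SE 0.65): estradiol stood 4.70 above control by itself and -0.049 from tamoxifen when added to it. The value was -1.45 for LCN2 (SE 0.58), -1.06 for LYZ (SE 0.69) and -0.99 for WFDC2 (SE 0.52). The other LCN2 probe sets bright enough to be tested gave the opposite sign, at 1.18 (SE 0.47) and 1.96 (SE 1.04), and the second of WFDC2 gave -0.27 (SE 0.30). For SLPI it was -0.19 (SE 0.74) and for CXCL17 0.52 (SE 0.47). These values hold the differences from control by which the genes were chosen, so none was tested.

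The 3 treated arms were also compared with each other. The combination and tamoxifen arms could not be told apart. limma called none of the 31659 probe sets between them (0% of genes), with 1283 probe sets, or 4.05%, at an unadjusted p under 0.05. The only 1 of the 6 genes at that unadjusted level was CXCL17, whose signals overlapped between these arms and whose difference was 0.88 (SE 0.33, 95% interval 0.18 to 1.59, adjusted p = 1 by limma). The differences of the others were -0.049 for DMBT1, 0.24 for LYZ, 0.32 for WFDC2, -0.70 for SLPI and -0.020 for LCN2, each with an adjusted p of 1 by limma. Their 95% intervals remain wide, from -1.02 to 0.92 for DMBT1, -0.79 to 1.27 for LYZ and -1.81 to 0.41 for SLPI.

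Against estradiol, limma called 1.33% of genes for the combination and 0.71% for tamoxifen. Among the 6 genes it called CXCL17 in both, and no other. For CXCL17 the combination stood 3.13 above estradiol on the log2 scale (SE 0.33, 95% interval 2.43 to 3.83) and tamoxifen stood 2.25 above it (95% interval 1.54 to 2.95), with no overlap of arrays, as in 4.06% and 2.57% of all genes. CXCL17 was probably chosen with these differences in view. Its mean log2 signal was 5.50 with estradiol and 5.14 in control, around the lowest mean kept (5.36). It was thus bright enough to be tested through the arms given tamoxifen, and nothing is read from the call. The call for tamoxifen against estradiol was lost without tamoxifen 2 or 3 or estradiol 1 or 4, with differences of 2.03 to 2.30 and adjusted p from 0.0533 to 0.099 by limma.

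**Figure D4:**
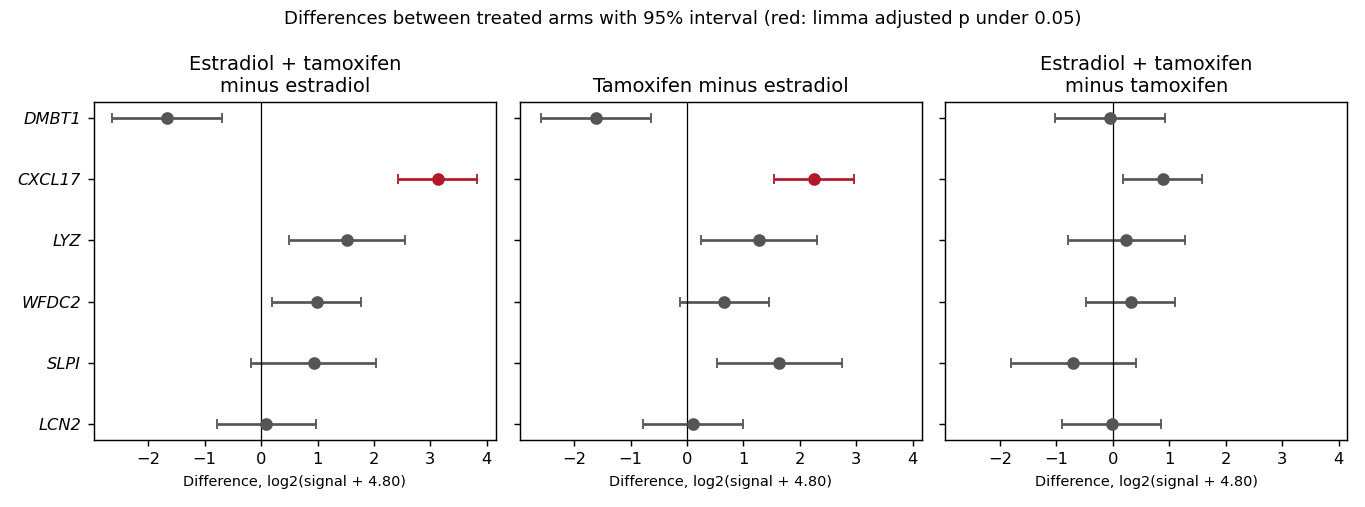
Differences between treated arms (log2) for the 6 genes, for the combination minus estradiol, tamoxifen minus estradiol and the combination minus tamoxifen, with 95% intervals from limma; red marks an adjusted p under 0.05. Only CXCL17 was called, at 3.13 and 2.25 against estradiol, and all intervals but that of CXCL17 span 0 between the combination and tamoxifen. CXCL17 was bright enough to be tested through the arms given tamoxifen, so nothing is read from its call.

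DMBT1 went the other way. The combination arm was 1.67 below the estradiol arm on the log2 scale, a difference of -1.67 (SE 0.46, 95% interval -2.64 to -0.69), with the arrays overlapping. Tamoxifen differed from estradiol by -1.62 (95% interval -2.59 to -0.65), and each tamoxifen array lay below each estradiol array, as in 4.55% of all genes. limma called neither (adjusted p = 0.0824 for the combination and 0.134 for tamoxifen by limma). DMBT1 passed the threshold in both comparisons when arrays were weighted by their spread around the fit, at -1.94 and -2.07. It passed in none of the 16 fits without 1 array and under none of the other settings.

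For LYZ the combination exceeded estradiol by 1.52 on the log2 scale (SE 0.49, 95% interval 0.49 to 2.55, adjusted p = 0.132 by limma), with all combination arrays but 1 above all estradiol arrays. Tamoxifen exceeded estradiol by 1.28 (95% interval 0.25 to 2.31, adjusted p = 0.265 by limma). Neither LYZ difference passed the threshold. WFDC2 differed by 0.98 for the combination (95% interval 0.20 to 1.77, adjusted p = 0.201 by limma) and by 0.66 for tamoxifen (95% interval -0.12 to 1.45, adjusted p = 0.477 by limma). SLPI differed by 0.94 for the combination (95% interval -0.17 to 2.04, adjusted p = 0.407 by limma) and by 1.64 for tamoxifen (95% interval 0.53 to 2.75, adjusted p = 0.184 by limma). For LCN2 the differences were 0.088 and 0.11, with intervals from -0.79 to 0.97 and -0.77 to 0.98 and an adjusted p of 0.949 and 0.942 by limma. These intervals leave room for differences of more than 1 log2 unit in LYZ, WFDC2 and SLPI.

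By mean log2 signal, the order of arms for DMBT1 was estradiol, tamoxifen, combination, control, and no difference between neighbouring treated arms was called. At the second DMBT1 probe set the combination stood above tamoxifen. For CXCL17, LYZ and WFDC2 it was combination, tamoxifen, estradiol, control, where the only neighbours called apart among the treated arms were tamoxifen and estradiol in CXCL17. For LCN2 it was tamoxifen, combination, estradiol, control.

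Markers of cells that make these proteins differed between the arms as well. In whole tissue, fewer cells of a type and less RNA per cell cannot be told apart. Of 20 markers of epithelium, from which DMBT1, WFDC2, SLPI and PIGR are mostly secreted, 15 were annotated and 12 bright enough to be tested. A score, the mean deviation of their log2 values from each gene's mean over all arrays, was 0.18 with the combination (-0.06 to 0.35 over arrays), 0.12 with tamoxifen (-0.55 to 0.75) and 0.32 with estradiol (-0.10 to 0.95). In control it was -0.61 (-0.68 to -0.55), so that 1 tamoxifen array (tamoxifen 2) was as low as the control arrays and every other treated array was higher. Their summed signal was 9230 to 11750 with the combination, 7912 to 15590 with tamoxifen and 9458 to 16912 with estradiol, against 6473 to 7328 in control. EPCAM, a defining marker, had a signal of 1665 to 2474, 950.4 to 3063 and 1041 to 2617 in the treated arms, in the same order, against 629 to 955 in control. Markers too dim to be tested are not in the score. Of these, CDH1 ran from 31.1 to 44.1, 20.3 to 134 and 33.0 to 109, against 1.75 to 6.11 in control. TJP3 overlapped control with tamoxifen only, and KRT7 overlapped control in each arm. Among the tested markers KRT18, CLDN4, ST14 and PAX8 overlapped control in each arm. No marker of this list or of those below was at 0, but neither was any other signal (lowest 0.0242). Being above 0 thus does not show that a marker was detected. limma called 6, 3 and 6 of the 12 higher than control with the combination, tamoxifen and estradiol, and none lower. The shares of all genes called higher were 10.6%, 8.59% and 16.5%. With the combination the marker count became 3 without control 1 or 3 or any 1 combination array. With tamoxifen it became 5 or 6 without estradiol 3 or 4, 1 without tamoxifen 1 or 3, and 8 without tamoxifen 2.

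Stroma markers differed from control too. Of 13, 11 were annotated and all of these were tested. With the combination, tamoxifen and estradiol, 6, 6 and 8 were called higher, against 10.6%, 8.59% and 16.5% of all genes. None was called lower (1 lower with estradiol without estradiol 3 or tamoxifen 1, and 1 lower with the combination in 2 of 12 other settings). Not every marker was higher. DCN ran from 4756 to 5942 with the combination, 2372 to 8459 with tamoxifen and 2234 to 7645 with estradiol, against 6855 to 9538 in control. Its combination arrays all lay below control. VIM differed from control by -0.22, 0.053 and 0.016 on the log2 scale. Median differences of these markers were 0.83, 0.95 and 1.44 on the log2 scale. Their score was 0.13 with the combination (0.02 to 0.35), 0.12 with tamoxifen (-0.07 to 0.33) and 0.46 with estradiol (0.27 to 0.60), against -0.71 in control (-0.77 to -0.63), and no treated array overlapped control. The summed signal of these markers was 41718 to 53286 with the combination, 44089 to 56458 with tamoxifen and 54066 to 63530 with estradiol, against 35062 to 37030 in control, and none was at 0. The part of stroma in the differences from control was not tested.

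Each array's epithelial score was also subtracted. This takes a gene to move by the same amount as the mean of the 12 tested markers. Those markers differed unequally from control, by 0.49 for SPINT2 and 1.77 for RAB25 with the combination. The part of epithelium in the differences was therefore not tested. After subtraction DMBT1 stood 2.24 above control on the log2 scale with the combination, 2.34 with tamoxifen and 3.77 with estradiol, without overlap. CXCL17 stood 2.70 and 1.88 above control in the arms given tamoxifen and at -0.57 with estradiol. LYZ stood 2.03 above control with the combination, 1.85 with tamoxifen, where arrays now overlapped control, and 0.37 with estradiol. WFDC2 stood 1.50, 1.24 and 0.38 above control, with overlap for estradiol. For SLPI the values became -0.37, 0.39 and -1.44, so that SLPI with the combination changed sign. For LCN2 they became 0.73, 0.81 and 0.51, where arrays now overlapped control with the combination and estradiol. Tamoxifen 1 and estradiol 4 had the highest epithelial scores of their arms (0.75 and 0.95) and low smooth muscle scores (-0.96 and -3.66). The same arrays had the highest WFDC2 signals of their arms, and without both the WFDC2 difference from control was 1.74 with tamoxifen and 0.98 with estradiol. Other genes differed in this. Tamoxifen 1 was also the highest of its arm for DMBT1, SLPI and LCN2, but estradiol 4 was the lowest of its arm for DMBT1, CXCL17 and LCN2.

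**Figure D5:**
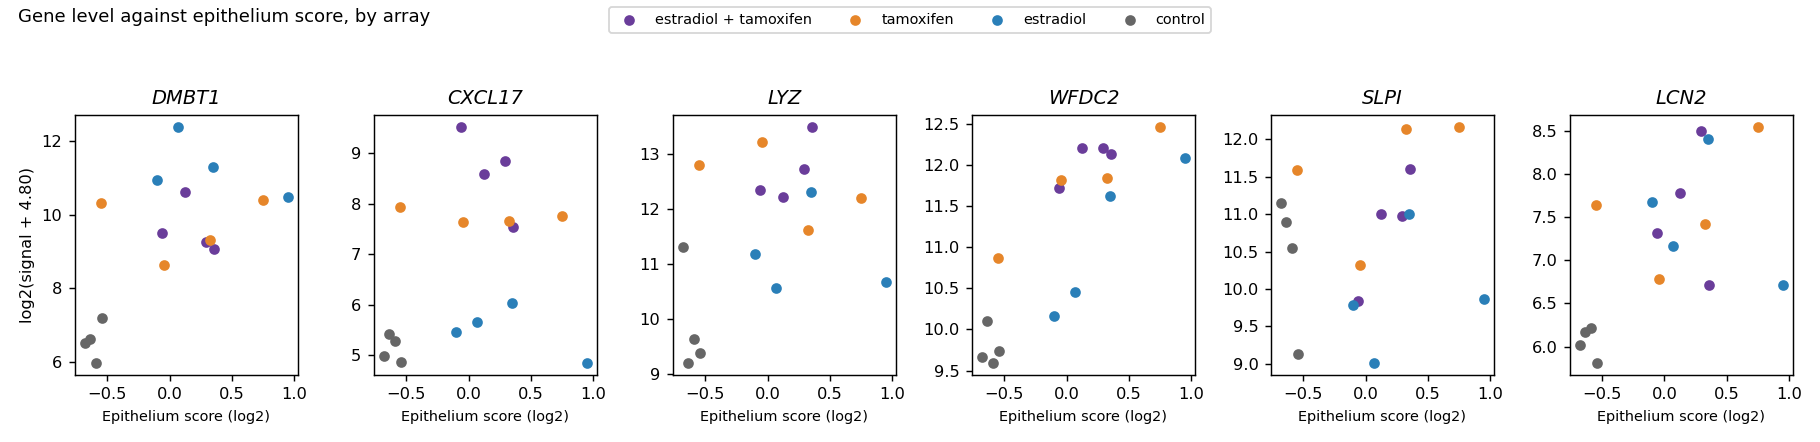
Log2(signal + 4.80) of each gene's brightest probe set against the epithelial marker score (mean log2 deviation of 12 markers) of the same array, with arms marked by colour. Control arrays and 1 tamoxifen array had the lowest scores (-0.68 to -0.55), and WFDC2 was highest in its arm on tamoxifen 1 and estradiol 4.

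LYZ is also made by macrophages and neutrophils, and LCN2 by neutrophils. Of 15 macrophage markers, 13 were annotated and 11 tested. Their score was -0.19 with the combination (-0.51 to 0.31 over arrays), -0.16 with tamoxifen (-0.59 to 0.05) and 0.11 with estradiol (-0.15 to 0.45). In control it was 0.24 (-0.02 to 0.64), and each treated arm overlapped control in this score. The summed signal of these markers was 3240 to 3992, 2923 to 3910 and 3046 to 4321 in the treated arms, in the same order, against 4141 to 4953 in control. limma called 1 of the 11 against control, TYROBP, a signalling adaptor of myeloid cells, with a difference of -1.24 on the log2 scale for the combination (SE 0.40, adjusted p = 0.045). That call was lost in 11 of the 16 fits without 1 array (all but tamoxifen 1, estradiol 4, combination 4 and control 2 and 4).

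Of 18 neutrophil markers 12 were annotated, 7 of them never above a signal of 100 and none at 0, and only ELANE and PADI4 were bright enough to be tested. MPO, a defining granule enzyme, ran from 14.6 to 26.4 with the combination, 14.5 to 29.8 with tamoxifen and 25.3 to 54.5 with estradiol, against 19.0 to 37.8 in control. The summed signal of the 2 tested markers was 74.6 to 137 with the combination, 68.0 to 245 with tamoxifen and 96.6 to 268 with estradiol, against 63.5 to 97.8 in control. S100A8 reached 672 on 1 estradiol array, and MMP9 reached 387 on 1 control array but at most 21.9 with estradiol. Both were too dim on average to be tested. JCHAIN, the chain that joins the IgA carried by the PIGR protein, ran from 36.1 to 233, 54.6 to 209 and 56.8 to 223 in the treated arms, against 83.8 to 319 in control, and none of the 4 tested markers of plasma cells and B cells was called against control. Of the 7 ciliated cell markers tested none was called against control either. Their mean scores were 0.55 with the combination (0.30 to 0.77 over arrays), 0.41 with tamoxifen (-0.39 to 1.71) and -0.40 with estradiol (-1.29 to 1.16). In control the score was -0.56 (-0.82 to -0.09). Every combination array thus scored above every control array, while the tamoxifen and estradiol arms overlapped control. RSPH1, DNAH5, CAPS, TEKT1 and SPAG6 had all combination arrays above all control arrays, as did 15.2% of all genes. FOXJ1 and DNAI1 overlapped control.

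The log2 ratio of 3' over 5' actin probe sets, a measure of RNA intactness and labelling, was 0.55 ± 0.075 with the combination, 0.52 ± 0.043 with tamoxifen and 0.57 ± 0.18 with estradiol, against 0.92 ± 0.11 in control (SD, n = 4 arrays per arm). The part of this ratio and of the marker scores in the differences from control was not tested.

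The genes did not follow one another closely. Over the 16 arrays, Pearson's r between their log2 values was 0.75 for CXCL17 with LYZ, 0.73 for LYZ with WFDC2, 0.71 for DMBT1 with LCN2 and 0.70 for CXCL17 with WFDC2. It was 0.28 for DMBT1 with CXCL17 and -0.085 for DMBT1 with SLPI. These arrays share 4 arms, so each r holds the differences between arms. Among the other 10704 genes, those most like DMBT1 by r over the 16 arrays were PDIA6 (0.94), GDE1 (0.94) and VDAC1 (0.93). For CXCL17 they were NET1 (0.91), NPY (0.91) and B4GALT1 (0.90), and for LYZ MYOM1 (0.90), LOC709619 (0.89) and PTPRF (0.87). For WFDC2 they were EHF (0.97), WWC1 (0.97) and PRSS8 (0.97). SLPI and LCN2 had looser partners, with PDPR (0.83), NCOA3 (0.81) and LRRC23 (0.79) for SLPI and TWF1 (0.89), UBE2M (0.86) and GADD45A (0.84) for LCN2.

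Other genes of the same kinds of protein were read from lists, described by counts and medians. limma called 10.6% of all genes higher and 9.09% lower with the combination against control, 8.59% and 7.64% with tamoxifen, and 16.5% and 13.2% with estradiol. Of 39 other secreted antimicrobial and mucosal proteins, 30 were annotated and 15 bright enough to be tested. Of these 1 was called higher and 3 lower with the combination, 0 and 2 with tamoxifen, and 1 and 4 with estradiol. Their median differences from control were -0.20, -0.20 and -0.080 on the log2 scale in these arms. RNASE4, a secreted ribonuclease, fell in every treated arm, with differences of -1.11, -0.96 and -1.12 on the log2 scale (SE 0.22, adjusted p = 0.00369, 0.00986 and 0.00182 by limma). Its signal was 1230 to 1636 with the combination, 1187 to 1938 with tamoxifen and 880 to 2022 with estradiol, against 2527 to 3540 in control, with no overlap. LGALS3BP, a secreted galectin-binding protein, rose by 1.16 with the combination and 1.12 with estradiol (SE 0.26, adjusted p = 0.00766 and 0.00533 by limma) and differed by 0.35 with tamoxifen (adjusted p = 0.388 by limma). ITLN1, a lectin that binds microbial sugars, fell in 2 arms, with differences of -3.08 for the combination and -3.40 for estradiol (SE 0.97, adjusted p = 0.0421 and 0.0184 by limma). The ITLN1 call with the combination was lost in 9 of the 16 fits without 1 array (any of the 4 combination arrays, estradiol 1 or 2, or control 1, 2 or 4), with adjusted p up to 0.11 by limma. The ITLN1 call with estradiol was lost without control 4 (adjusted p = 0.0563 by limma). ITLN1 signals ran from 19.5 to 49.6 with the combination, 14.2 to 630.3 with tamoxifen and 17.9 to 43.9 with estradiol, against 43.4 to 917 in control.

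Of 23 genes of other WAP proteins and protease inhibitors, 17 were annotated and 9 tested. WFDC1, a secreted WAP protein, rose in the 3 treated arms by 1.50, 1.51 and 1.82 on the log2 scale (SE 0.24, adjusted p = 0.0012, 0.00155 and 0.000145 by limma). Its signal was 3156 to 5675 with the combination, 2444 to 4922 with tamoxifen and 3691 to 5713 with estradiol, against 1005 to 1640 in control, with no overlap. It was the only one called higher. The count called higher became 2 with the combination without estradiol 3 or 4 or tamoxifen 1 or 2, with tamoxifen without estradiol 2, 3 or 4 or tamoxifen 2, and with estradiol without control 2. Under other settings it reached 3 with the combination and 3 with tamoxifen, both with the mean over probe sets. SERPINA3, an inhibitor of neutrophil cathepsin G, fell by 0.41 with the combination (SE 0.098, adjusted p = 0.011 by limma) and was the only one called lower. The median differences were 0.24, 0.19 and 0.19.

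Of 17 other genes listed with scavenger receptor cysteine-rich proteins, the domain family of DMBT1, 13 were annotated and 10 tested. Of these 4, 4 and 3 were called higher with the combination, tamoxifen and estradiol, and none lower, with medians of 0.42, 0.44 and 0.36. They were enzymes, not scavenger receptors. LOXL2, a lysyl oxidase that cross-links collagen, rose by 1.33, 1.10 and 2.33 (SE 0.21, adjusted p = 0.00127, 0.00482 and 1.63e-05 by limma). LOXL1, its relative without these domains, rose by 1.00, 0.96 and 1.31 (SE 0.24, adjusted p = 0.0131, 0.0188 and 0.00148 by limma), and its tamoxifen call was lost without tamoxifen 4. TMPRSS2, a serine protease of epithelial surfaces, rose by 1.67 with the combination and 1.79 with tamoxifen (SE 0.38, adjusted p = 0.0091 and 0.00748 by limma) and differed by 1.02 with estradiol (adjusted p = 0.0592 by limma). TMPRSS4, of the same family, rose by 1.50, 1.02 and 1.96 (SE 0.31, adjusted p = 0.00519, 0.0411 and 0.000506 by limma), and its tamoxifen call was lost in 8 of the 16 fits without 1 array.

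Of 17 mucosal chemokines 12 were annotated and 8 tested, with medians of -0.41, -0.33 and -0.28 with the combination, tamoxifen and estradiol. CCL25, which draws lymphocytes to the gut, rose by 0.41, 0.47 and 0.70 on the log2 scale (SE 0.11, adjusted p = 0.0182, 0.0107 and 0.00041 by limma), and the call with the combination was lost without combination 1 or 2 or control 4. CCL2, a monocyte chemoattractant, fell in the 3 treated arms, with differences of -2.22, -2.00 and -2.15 (SE 0.57, adjusted p = 0.0164, 0.0305 and 0.0124 by limma). CCL2 signals ran from 23.4 to 115 with the combination, 30.4 to 121 with tamoxifen and 29.4 to 97.6 with estradiol. In control they ran from 75.7 to 399, so each treated arm overlapped control. The CCL2 call was lost with the combination without combination 1, and with tamoxifen without tamoxifen 1 or 3 or control 1, 2 or 4. CXCL16 fell in 2 arms, with differences of -0.58 for the combination and -0.60 for tamoxifen (SE 0.16, adjusted p = 0.0233 and 0.0232 by limma) and differed by -0.31 with estradiol (adjusted p = 0.165 by limma). The CXCL16 calls were lost without control 2, with the combination without combination 2 or 4, and with tamoxifen without tamoxifen 4.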

How the data were processed

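Per the labels' protocols, total RNA of frozen endometrium was biotin-labelled in 1 round of amplification and hybridised to Affymetrix rhesus arrays. Arrays were matched to arms by title, and the samples of an arm are separate, randomized animals. The authors deposited intensity (signal) values on a linear scale, from 0.0242 to 23401. Per the submitters' processing notes the tools were GCOS, Affymetrix Expression Console and MAS5, without versions, and no scaling target is stated. With 2% trimmed at either end, every array's mean was 250.0, so no normalization was added, and differences are relative to an array's total.

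The platform annotation assigns a single symbol to 24969 probe sets, more than 1 to 361, and no symbol to 27535. Control probe sets (99) and the dimmest 40% by mean signal were removed, and the 31659 kept had log2 means from 5.36 upward. Arm means were fitted to log2(signal + 4.80), a pseudocount equal to the 10th percentile of all values, with limma 3.58.1 (eBayes with trend, 12 residual degrees of freedom) in R 4.3.3, after a test on simulated data. Same-numbered arrays did not deviate together (median r of 0.0052 over 24 pairs, from -0.27 to 0.095), so the numbers were not taken to pair animals.

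The genes and all lists were chosen with earlier results of these data known. Besides the 8 genes, the text names the 3 genes most like each, and from each of the 4 lists of related proteins the 3 largest differences of the combination from control past the threshold, plus the brightest gene. All marker genes given by name were named after their values were seen. Among them were EPCAM, CDH1, DCN, TYROBP, MPO, S100A8, MMP9, JCHAIN and the tested ELANE and PADI4. Alternatives were other pseudocounts, filters, normalization, variance models, array weights, arrays left out, a replicate block and the mean over probe sets. Sequences were not used here, and genome positions served only to place SLPI and WFDC2.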

Additional observations from a re-analysis of the deposited data

Results flagged for a closer look

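Of 24 sets of 4 arrays, the 6 genes in each of the 4 arms, 1 had an array far from the others by Dixon's criterion, which chance meets in about 1 of 20 sets. The first combination array gave a WFDC2 signal of 3364, below the 4495 to 4731 of the other 3 combination arrays. On the log2 scale the gap was 0.85 of the arm's whole range, past the critical value of 0.829. The signals given here are linear, and the flag holds for the log2 values only. That array still lay above all control arrays (768 to 1091).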

How the results depend on the processing

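Each result was recomputed in 16 fits without 1 array and under up to 13 other settings. Among the 6 genes, the count called between combination and estradiol (1, CXCL17) became 0 when the 60% dimmest probe sets were left out, which removed CXCL17, and 2 with array weights, which added DMBT1 as lower, and it was 1 without any 1 array. The count for tamoxifen against estradiol (1) became 0 with that filter, 0 with only the 2 arms in the fit (adjusted p = 0.0703 by limma for CXCL17), 2 with array weights, and 0 to 1 without 1 array. For the combination against tamoxifen it was 0 in every fit run. The median differences from control became 1.99, 1.85 and 0.55 for the combination, tamoxifen and estradiol with the mean over probe sets, where LCN2 and WFDC2 take in probe sets that did not share the pattern, and 1.77, 1.54 and 0.38 with the epithelial score subtracted. Without 1 array they ran from 2.41 to 2.67, 2.14 to 2.37 and 1.03 to 1.51. The median departure from the sum of the drug effects, -1.03, became -0.41 with the mean over probe sets and ran from -1.23 to -0.75 without 1 array. Some differences changed sign. With the mean over probe sets, LCN2 in tamoxifen minus control went to -0.063, against 1.54 at its brightest probe set, and its departure from the sum of the drug effects to 0.56, against -1.45. With the epithelial score subtracted, CXCL17 in estradiol minus control was -0.57 and SLPI in combination minus control -0.37. With no score subtracted, SLPI in combination minus control was -0.013 without control 3. Without 1 array the SLPI departure ran from -0.60 to 0.25. Between treated arms the differences that changed sign were uncalled. For DMBT1, combination minus tamoxifen was 0.13 with array weights, 0.20 without estradiol 4 and tamoxifen 1, 0.16 with the mean over probe sets and -0.39 to 0.20 without 1 array. For LCN2, combination minus estradiol was -0.094, -0.17 and -0.22 to 0.39 under array weights, without those 2 arrays and without 1 array. LCN2 in combination minus tamoxifen gave 0.19, 0.30 and -0.33 to 0.30 in the same order and 0.58 with the mean over probe sets, and tamoxifen minus estradiol -0.28, -0.47, -0.21 to 0.41 and -0.078. LYZ in combination minus tamoxifen ran from -0.043 to 0.49 without 1 array. The cause of these changes was not tested. The replicate block left the counts of 1, 0 and 1 as they were, and 1 of 16 arrays correlated best with its own number. The call of TMPRSS4 with tamoxifen was lost under the block (adjusted p = 0.0669 by limma), with a pseudocount of 32, no filter, array weights, only the 2 arms, and without the 2 arrays (adjusted p up to 0.0788 by limma). Both CXCL16 calls were lost with no filter and with only the 2 arms, that of CCL2 with tamoxifen with array weights, only the 2 arms and without the 2 arrays, and that of ITLN1 with the combination with no filter. TYROBP was lost with no filter, quantile normalization, eBayes without a trend, only the 2 arms and the block. SERPINA3 was lost with the mean over probe sets (adjusted p = 0.0648 by limma). No depth is known for array signals, and probe sets near the filter are the least precise.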
